A study of Mus musculus with 7 samples.

Results

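HDAC1 binding was examined at the genes of its own corepressor partners, the proteins that hold this histone deacetylase in complexes. The 10 genes were taken by name, and the rule for them uses no measured value: Sin3a, Sin3b and Sap30 of the Sin3 complex, Chd4, Mta1, Mta2 and Mbd3 of the NuRD complex, Rcor1 and Kdm1a of the CoREST complex, and Ncor1 of the NCoR complex. These genes were, however, chosen with earlier results of these data known. An HDAC1 peak belonged to a gene when it overlapped the gene body with 5 kb added on each side by at least 1 bp. By this rule 18 of the 15347 HDAC1 peaks belonged to the corepressor genes, and 10 of 10 genes had at least 1 peak. The background for this count was high, since 50.5% of 21938 protein-coding genes had a peak in the same region.

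HDAC1 ChIP-seq, in which an antibody brings down DNA bound by HDAC1 from fixed chromatin for sequencing, was performed on forelimb and hindlimb buds of Swiss Webster mouse embryos at E11.5 (40 to 44 somites). There were 4 ChIP samples and 3 inputs, sheared chromatin taken without antibody. Each sample was a pool of 3 litters according to the labels, which name no mutant allele and no treatment in any sample. The study used these data to ask where HDAC1 lies in a tissue in which GLI repressors limit enhancer acetylation, and the samples were deposited together as 1 table of peak positions on the mm10 genome. The position of a peak in this list is called its rank, with 1 at the top. The list analysed here gives only coordinates, without a read number or a value of a single sample, so no value below has a replicate error and no comparison could be tested. Enrichment over input and its false discovery rate, which the study describes for each peak in its source data, were not used here. The list holds no expression values, so the tissue label could not be checked against marker genes, and fore- and hindlimb or single cell types of the bud cannot be told apart.

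HDAC1 removes acetyl groups from histone tails and does not bind specific DNA sequences by itself. It works within large corepressor complexes that transcription factors or methylated DNA bring to chromatin. SIN3A and SIN3B are the scaffolds of the Sin3 complex, and SAP30 is one of their associated proteins. CHD4 is the remodelling ATPase of NuRD, MTA1 and MTA2 hold the deacetylases in it, and MBD3 is its methyl-CpG-binding domain protein. RCOR1 is the scaffold of CoREST and KDM1A its histone demethylase, which removes methyl groups from lysine 4 of histone H3. NCOR1 is a corepressor of nuclear receptors whose principal deacetylase is HDAC3 rather than HDAC1.

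The genes differed in whether HDAC1 reached upstream of the transcription start or lay only downstream of it, and the sequences upstream of 5 starts are shown to set these forms side by side. All are from RefSeq on GRCm38 (mm10), end just before the most upstream RefSeq start or before the first annotated exon, run 5′ to 3′ on the strand of the gene, and carry in capitals any GGGCGG, its reverse complement, and any CCAAT. The stretches of Sap30 (chr8:57487861-57488110, minus strand), Rcor1 (chr12:111039117-111039350, plus strand) and Ncor1 (chr11:62457333-62457435, minus strand) lay entirely within an HDAC1 peak. The stretches of Chd4 (chr6:125095731-125095980, plus strand) and Sin3b (chr8:72723020-72723269, plus strand) had 0 bases in a peak. The Chd4 peak began 19 bp downstream of the start, less than the 50 bp steps in which peak edges were placed, so its form is uncertain.
Sap30: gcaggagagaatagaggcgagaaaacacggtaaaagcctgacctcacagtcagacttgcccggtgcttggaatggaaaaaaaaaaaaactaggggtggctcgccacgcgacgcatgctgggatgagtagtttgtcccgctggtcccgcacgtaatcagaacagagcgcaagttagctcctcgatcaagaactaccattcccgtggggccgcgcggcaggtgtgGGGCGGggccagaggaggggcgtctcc
Rcor1: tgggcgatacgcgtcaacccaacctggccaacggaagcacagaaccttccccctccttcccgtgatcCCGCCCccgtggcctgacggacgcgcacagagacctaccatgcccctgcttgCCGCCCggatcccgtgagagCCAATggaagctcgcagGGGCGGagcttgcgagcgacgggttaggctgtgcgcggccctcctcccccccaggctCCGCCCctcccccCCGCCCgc
Ncor1: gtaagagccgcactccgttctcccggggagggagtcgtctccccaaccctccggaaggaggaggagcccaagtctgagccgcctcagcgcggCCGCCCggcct
Chd4: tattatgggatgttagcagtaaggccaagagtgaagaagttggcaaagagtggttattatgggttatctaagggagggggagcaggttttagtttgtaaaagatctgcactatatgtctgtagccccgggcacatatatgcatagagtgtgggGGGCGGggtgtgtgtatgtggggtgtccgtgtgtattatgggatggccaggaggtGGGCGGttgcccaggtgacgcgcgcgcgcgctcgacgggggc
Sin3b: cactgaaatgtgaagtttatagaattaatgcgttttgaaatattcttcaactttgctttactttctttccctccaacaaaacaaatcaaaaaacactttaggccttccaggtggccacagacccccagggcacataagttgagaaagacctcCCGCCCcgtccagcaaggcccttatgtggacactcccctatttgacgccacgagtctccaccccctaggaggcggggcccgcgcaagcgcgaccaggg

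Peaks downstream of a start also differed in base composition, and the central 200 bases of a pair of intronic peaks show its extremes. Intronic here means inside the gene and outside the exons of its GENCODE protein-coding transcripts. In these sequences (plus strand, GRCm38) capitals mark each CG dinucleotide. The Mta1 peak (chr12:113098650-113098849 of it) had 27 CG dinucleotides and 83.0% G and C in this stretch. The Sin3a peak of rank 9790 (chr9:57074300-57074499 of it) had 5 CG dinucleotides and 50.5% G and C.
Mta1: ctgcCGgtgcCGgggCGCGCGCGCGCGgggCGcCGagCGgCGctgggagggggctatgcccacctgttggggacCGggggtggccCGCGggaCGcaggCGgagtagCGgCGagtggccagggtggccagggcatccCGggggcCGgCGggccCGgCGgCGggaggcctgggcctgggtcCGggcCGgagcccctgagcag
Sin3a: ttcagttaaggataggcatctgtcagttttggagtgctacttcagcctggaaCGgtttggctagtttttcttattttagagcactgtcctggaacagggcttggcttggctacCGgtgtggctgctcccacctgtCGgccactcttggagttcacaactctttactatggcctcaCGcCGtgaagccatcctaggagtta

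Peaks were then divided into promoter peaks, which overlapped a window around a protein-coding start of the gene that reached 2 kb against and 1 kb along the direction of transcription, and others. Each of the 10 corepressor genes had a promoter peak, where 43.9% of all protein-coding genes had one. The share among all genes rose with gene length. It was 28.6% for genes under 10 kb, the class of Sap30 and Mbd3, 44.7% from 10 to 30 kb (Mta2), 57.0% from 30 to 100 kb (6 of the 10) and 62.1% above (Ncor1). Of the 18 peaks, 13 lay at the promoter of the corepressor gene itself and the remaining 5 at the promoter of the next gene. None of the 18 was distal, meaning away from every protein-coding promoter. Among all genes with a promoter peak, 14.2% also had a distal peak in the gene body or its flanks, and 0 of 10 is near this background.

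**Figure D1:**
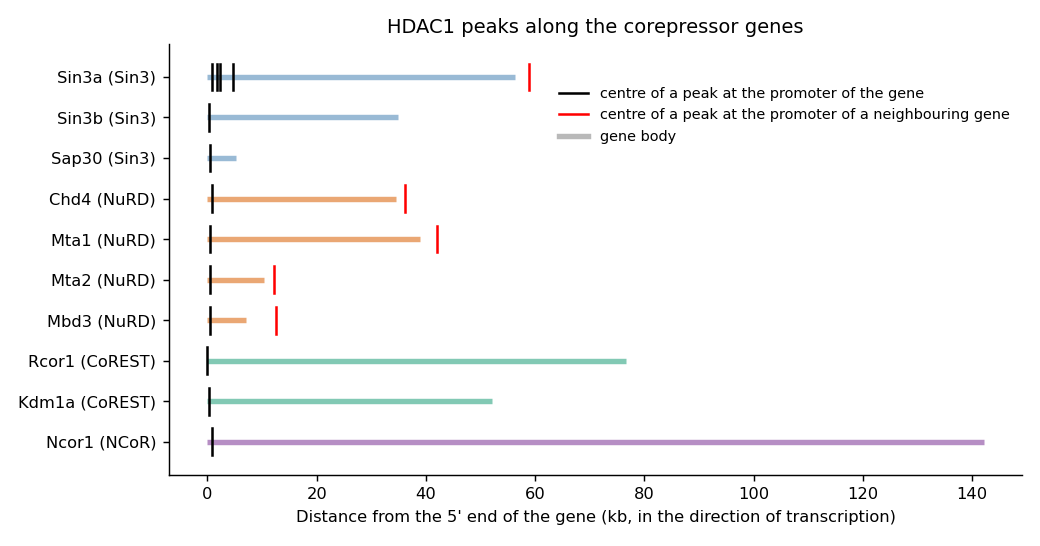
Each horizontal bar is a gene drawn to scale from its 5′ end (x axis in kb, in the direction of transcription), and each vertical line is the centre of an HDAC1 peak, in black at the promoter of the gene and in red at that of a neighbouring gene. The 13 black lines stand at the 5′ ends and the 5 red lines beyond the 3′ ends of Sin3a, Chd4, Mta1, Mta2 and Mbd3, with no line in the long interior of Rcor1, Kdm1a or Ncor1.

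The 3 genes of the Sin3 complex spanned nearly the whole range of ranks seen for the corepressor genes. Sap30 (5.15 kb, minus strand) had the highest placed promoter peak of the 10 genes, at rank 413, with chr8:57486750-57488149 covered over 1400 bp. This peak began 289 bp upstream of the start and reached 1110 bp downstream, over exon (43.5% of its bases), intron (35.9%) and the flank outside the gene (20.6%). Sin3b (34.9 kb, plus strand) had the lowest placed, at rank 10801, with chr8:72723400-72723799 covered over 400 bp. It lay from 130 to 529 bp downstream of the start, and 53.3% of its bases were exonic. The long peak near the top of the list and the short one in its lower part thus belonged to the same complex.

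Sin3a (56.3 kb, plus strand) was the sole gene of the 10 with more than 1 promoter peak, and it had 4. Of all genes with a promoter peak, 21.4% had more than 1. The first, at rank 1062, covered chr9:57072100-57073549 (1450 bp), from 60 to 1509 bp downstream of the most upstream RefSeq start. The others followed downstream at rank 10257 (chr9:57073600-57073999, 400 bp), rank 9790 (chr9:57074100-57074699, 600 bp) and rank 6553 (chr9:57076250-57077349, 1100 bp). The first 3 were separated by gaps of 50 and 100 bp, one or 2 of the 50 bp steps in which peak edges were placed, and the last followed after 1550 bp. Together the 4 peaks held 3550 bp of a stretch of 5250 bp, more than the promoter peaks of any other of the 10 genes. Alternative starts of Sin3a lie along this stretch. The first protein-coding start in the basic GENCODE annotation is at 57075338, 3298 bp downstream of the first RefSeq start, and the peak of rank 6553 covered a later coding start at 57076376. The peak of rank 1062 overlapped the promoter window of the GENCODE coding starts by just 212 bp, but lay directly after the first RefSeq start. With a window of 1 kb on both sides, or with at least 50% of a peak inside the window, it was no promoter peak and the best rank of Sin3a was 6553. Apart from the last peak, of which 23.2% was exonic, these peaks lay inside the gene and outside every exon of its GENCODE protein-coding transcripts. Exons of other transcripts were not counted.

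**Figure D2:**
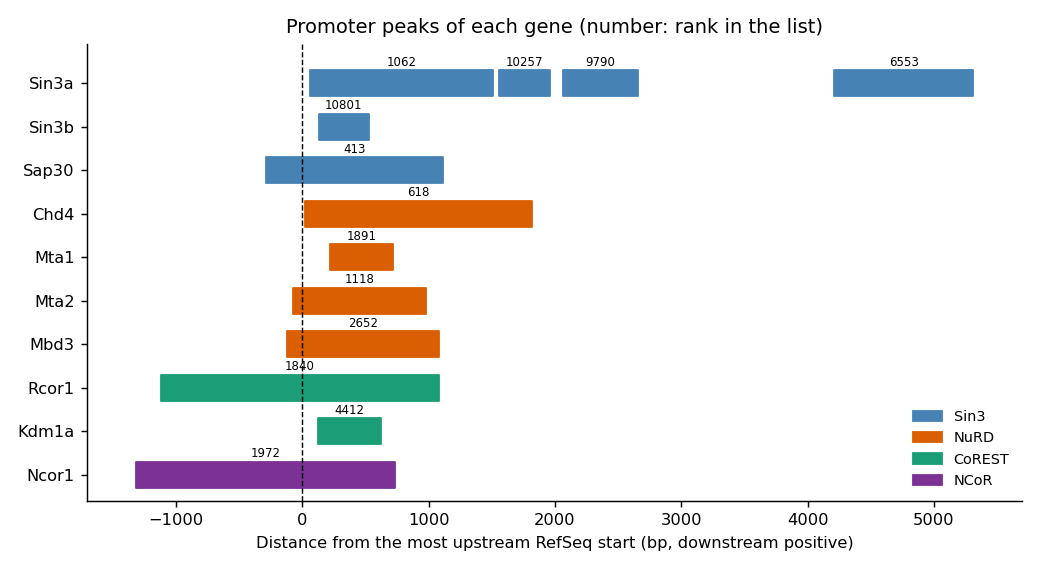
Promoter peaks of the 10 genes drawn to scale against the most upstream RefSeq start (dashed line; x axis in bp, downstream positive), coloured by complex and labelled with their rank. The peaks of Sap30, Mta2, Mbd3, Rcor1 and Ncor1 cross the line, and those of Sin3a, Sin3b, Chd4, Mta1 and Kdm1a begin downstream of it.

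The 4 NuRD genes had 1 promoter peak each, and their ranks lay closer together, from 618 to 2652. Chd4 (34.6 kb, plus strand) had the longest of them, 1800 bp at chr6:125096000-125097799 and rank 618. It began 19 bp downstream of the start, less than a 50 bp step, so its upstream edge and the start cannot be told apart at this resolution. Of its bases 53.2% were exonic and 5.56% coding. Mta2 (10.4 kb, plus strand) followed at rank 1118 with 1050 bp at chr19:8941850-8942899, from 70 bp upstream to 979 bp downstream of the start. Mbd3 (7.01 kb, minus strand) had 1200 bp at chr10:80398450-80399649 and rank 2652, from 118 bp upstream to 1081 bp downstream. A further coding start of Mbd3, at 80395719 and 3831 bp downstream of its first GENCODE coding start, was not covered by a peak. Mta1 (38.9 kb, plus strand) had the shortest peak of the complex, 500 bp at chr12:113098500-113098999 and rank 1891. It lay entirely in intron sequence, from 222 to 721 bp downstream of the start. Of the paralogs Mta1 and Mta2, Mta2 thus had HDAC1 up to or over its start and Mta1 had a shorter peak that began past it. Just 25 bases of the Mta2 peak lay outside the GENCODE gene, which begins at 8941875. That is less than a 50 bp step, so the upstream edge and this start cannot be told apart.

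The CoREST genes had 1 peak each, of opposite form. Rcor1 (76.6 kb, plus strand) had the longest promoter peak of the 10 genes, 2200 bp at chr12:111038250-111040449 and rank 1840. It was nearly symmetrical about the start, from 1117 bp upstream to 1082 bp downstream, and 1101 of its bases lay outside the gene. Kdm1a (52.2 kb, minus strand) had 500 bp at chr4:136602100-136602599 and rank 4412, from 124 to 623 bp downstream of the start. Its peak was the most exonic of the 13, with 73.6% of its bases in exon and 70.8% in coding sequence.

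Ncor1 (142 kb, minus strand), the longest of the genes, had a single peak of 2050 bp at chr11:62456600-62458649 and rank 1972. It reached from 1317 bp upstream to 732 bp downstream of the most upstream RefSeq start and also covered the start of Pigl, which is transcribed in the opposite direction. The Ncor1 gene in GENCODE begins further upstream, at 62458541, and just 108 bases of the peak lay outside it. From the start of Pigl (62458441) the peak extended 208 bp into that gene, so binding at the Ncor1 and the Pigl promoter cannot be told apart. Ncor1 has 5 coding starts over 97541 bp, the last at 62359791, and no HDAC1 peak lay at its internal starts or elsewhere in the gene. Among genes of 100 kb or more with a promoter peak, 30.3% also had a distal peak in the gene body or its flanks. That share leaves out peaks at internal coding starts.

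The ranges of the complexes overlapped in rank and in length. The best promoter peak of a gene, the 1 with the lowest rank number, had ranks 413, 1062 and 10801 in Sin3, a median of 1504.5 (618 to 2652) in NuRD, 1840 and 4412 in CoREST and 1972 in Ncor1. Its length ranged from 400 to 1450 bp in Sin3, from 500 to 1800 bp in NuRD and from 500 to 2200 bp in CoREST. With 1 to 4 genes a complex and 1 list of peaks no test of a difference between complexes was possible. Sin3 had 7 of the 18 peaks and NuRD had 8, against 2 for CoREST and 1 for Ncor1. Neighbouring promoters made up 4 of the 8 NuRD peaks and 1 of the 7 Sin3 peaks, so by own promoter peaks alone the counts were 6, 4, 2 and 1. Once gaps of up to 1000 bp were closed, which joins the first 3 peaks of Sin3a, the counts for Sin3 and NuRD were 4 and 4.

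Across the 10 genes the best promoter peaks were long and high in the list. Their median rank was 1865.5, beside 5174.5 for the best peaks of all 9630 genes with a promoter peak, and their median length was 1300 bp, beside 650 bp. When the list was divided into 4 equal parts, 8 of the 10 best peaks fell into the first (ranks 1 to 3836), 1 (Kdm1a) into the second and 1 (Sin3b) into the third. For all genes the shares in these parts were 38.3%, 29.8%, 19.2% and 12.7%. Without the Sin3a peak of rank 1062, under these narrower definitions of a promoter peak, 7 of the 10 fell into the first part and the median rank was 1931.5. The other promoter peaks below rank 3836 were the 3 lower placed peaks of Sin3a.

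Length and rank go together in the list, so each peak was also set beside the 250 ranks before and after it. Rcor1 and Ncor1 were long for their place. The Ncor1 peak also covered the start of Pigl, so its length is not that of the Ncor1 promoter alone. The median of the surrounding peaks was 1050 bp for Rcor1 and 1000 bp for Ncor1, and 94.4% and 93.8% of them were shorter. The last Sin3a peak (rank 6553) was in the same position, with a surrounding median of 525 bp and 94.4% shorter. Mta1 was at the other extreme. Its 500 bp compared with a surrounding median of 1050 bp, and 5.2% of the surrounding peaks were shorter. Kdm1a was also short for its rank, with 20.6% of its surroundings shorter. The remaining best peaks were nearer the middle, with 35.6% (Mta2) to 73.4% (Mbd3) of the surrounding peaks shorter.

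**Figure D3:**
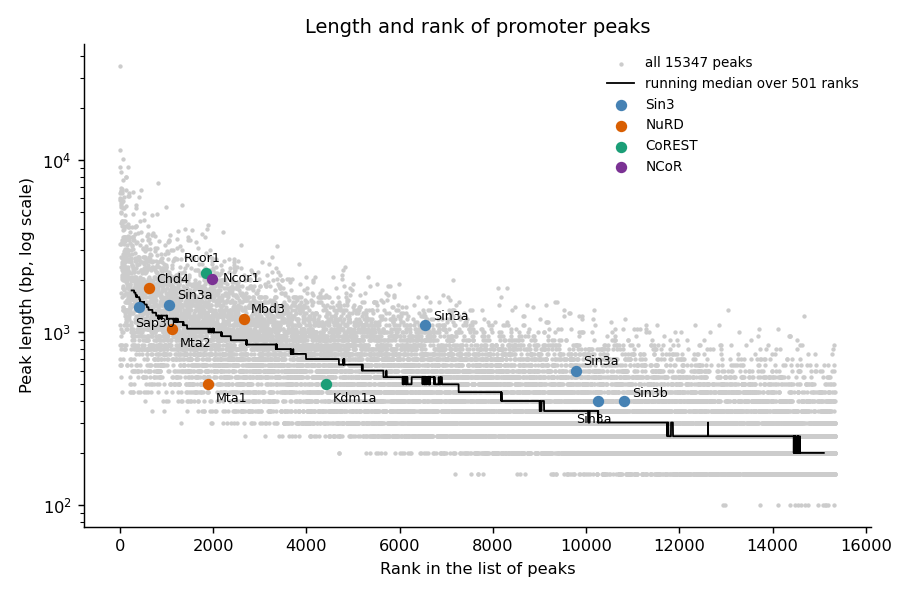
Length (y axis, bp, log scale) against rank (x axis) for all 15347 peaks (grey), with the running median over 501 ranks (black line) and the 13 promoter peaks of the corepressor genes in the colour of their complex. Rcor1, Ncor1 and the Sin3a peak of rank 6553 lie well above the line, and Mta1 and Kdm1a lie below it.

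The placement of the peaks relative to the start was mostly downstream. Of the 10 best promoter peaks, 5 covered the most upstream RefSeq start (Sap30, Mta2, Mbd3, Rcor1 and Ncor1), 5 lay wholly downstream (Sin3a, Sin3b, Chd4, Mta1 and Kdm1a) and 0 lay wholly upstream. Chd4 and Sin3a began 19 and 60 bp from the start, near the size of a step. In 7062 protein-coding genes whose best peak lay in the window of that start, 66.0% of peaks covered the start, 25.5% lay wholly downstream and 8.55% wholly upstream. The centre of the peak was downstream of the start in 8 of the 10 corepressor genes, with a median of 432.5 bp and a range from -292.5 bp (Ncor1) to 918.5 bp (Chd4), and in 76.2% of all genes, with a median of 180.5 bp. A downstream centre was therefore common to HDAC1 promoter peaks at large. The 2 genes with an upstream centre, Rcor1 and Ncor1, were those with the longest peaks. The Rcor1 centre lay at -17.5 bp, less than a 50 bp step, so its side of the start cannot be told at this resolution. The Ncor1 centre was upstream of the RefSeq start but inside the GENCODE gene, which begins at 62458541. This peak also covered the start of Pigl, so its placement is not that of Ncor1 alone. The placement of Sin3a also rests on the RefSeq start. Its peak of rank 1062 was a promoter peak through the GENCODE coding starts, whose window it overlapped by 212 bp. It lay wholly upstream of them, since the first is at 57075338.

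The 5 peaks counted through the flanks all lay past the 3′ end of the corepressor gene and at the start of the next gene. The peak past Chd4 (rank 1346, chr6:125131600-125132549, 950 bp) was 1009 bp from its end and covered the start of Nop2. Past Mta2, at 1397 bp, the peak of rank 7299 (chr19:8953700-8954399, 700 bp) covered the start of Tut1. Past Sin3a, at 2184 bp, the peak of rank 5389 (chr9:57130550-57131249, 700 bp) covered the start of Man2c1. Past Mta1, at 2844 bp, the peak of rank 5492 (chr12:113140050-113140599, 550 bp) covered the start of Crip2. These 4 peaks reached from 132 to 283 bp upstream to between 363 and 666 bp downstream of the neighbour's start. The peak nearest to the top of the list among all 18 was also of this kind. It had rank 197 and 2250 bp (chr10:80385950-80388199), lay 4340 bp past the end of Mbd3 and covered the 5′ end of Mex3d (80387659). All 5 neighbours are transcribed in the same direction as the corepressor gene. The member peaks taken without these 5 had a median rank of 1972 and a median length of 1100 bp, and with them 2312 and 1000 bp.

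Promoter peaks of the corepressor genes were rich in G, C and CpG, as were promoter peaks at large. GC content ranged from 51.3% to 79.8% over the 13 peaks with a median of 64.5%, beside medians of 65.4% for all 10757 peaks at protein-coding promoters and 52.5% for the 4590 peaks elsewhere. The ratio of observed CpG to the number that the C and G content gives had a median of 0.824 over the 13, beside 0.817 and 0.371. The 2 peaks that were short for their rank had the highest GC content, 79.8% for Mta1 and 77.0% for Kdm1a, above 99.6% and 97.7% of all peaks. Both lay wholly downstream of the start. GC content affects amplification and the recovery of fragments in sequencing, and its part in the length of these peaks was not tested. The Sin3a peak of rank 9790 was the poorest, with 51.3% GC and a ratio of 0.532. Chd4 had a GC content of 66.3%, but a ratio of just 0.596, and Sin3b had the highest ratio, 0.999, in the lowest placed peak.

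**Figure D4:**
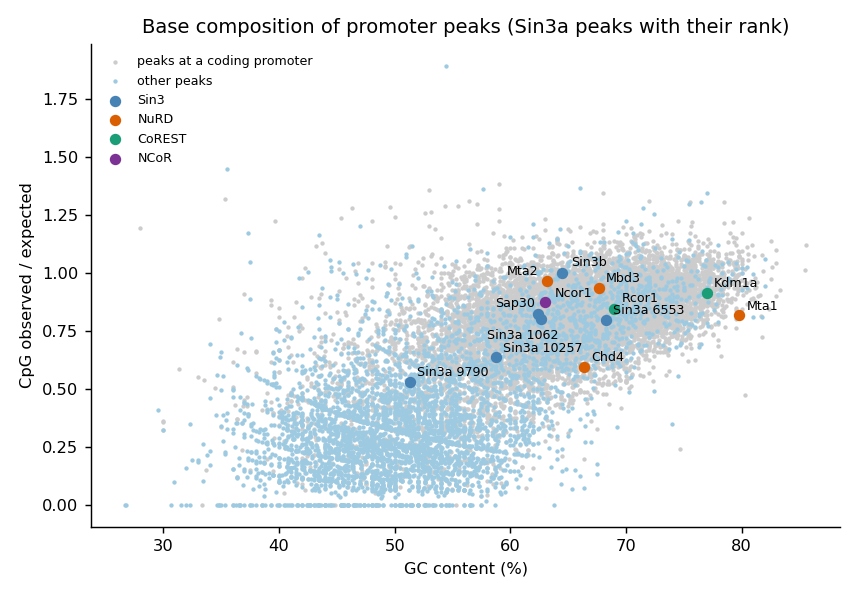
CpG observed over expected (y axis) against GC content in percent (x axis) for all peaks, grey at protein-coding promoters and light blue elsewhere, with the 13 promoter peaks of the corepressor genes in the colour of their complex. Mta1 (79.8%) and Kdm1a (77.0%) lie at the right edge, and the Sin3a peak of rank 9790 (51.3%, 0.532) lies among the peaks outside promoters.

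The letters of 8 sequence motifs were counted on both strands from 250 bp upstream to 50 bp downstream of the most upstream RefSeq start in 17492 coding genes, which included all 10 corepressor genes. None of the searched motifs contains another. GGGCGG, which reads CCGCCC on the other strand, is the core of the GC box bound by SP factors. It was present in 9 of 10 corepressor promoters and in 46.3% of all 17492, with or without an HDAC1 peak. All 10 genes have a promoter peak, and the share among promoters with a peak was not computed. Kdm1a was the exception, while Rcor1 had 6 copies and Mta1 had 4. CCAAT, which reads ATTGG on the other strand and is bound by NF-Y, was present in Chd4, Kdm1a, Mbd3, Rcor1 and Sin3a, 5 of 10, beside 39.2% of all. CCGGAAGT, an ETS factor site, was found in Mta2 (5.28% of all promoters), and AAGATGGCG, a YY1 site, in Ncor1 (1.92% of all). The E-box CACGTG (7.91% of all), the cyclic AMP response element TGACGTCA (2.33%), the NRF1 letters GCGCATGC (3.61%) and the GLI letters GACCACCCA (0.177%) had no match in the 10 windows. The median GC content of these windows was 61.0%, beside 56.3% for all promoters, and Mta1 had the highest value, 81.0%.

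Other subunit genes of the same complexes, also listed with earlier results of these data known, were examined for the setting of these values. Of 32 such genes 31 had a promoter peak, where 43.9% of all protein-coding genes had one. Sap25 of the Sin3 complex had none, its nearest peak (rank 12891) lying 11885 bp away. By complex the counts were 11 of 12 for Sin3, 7 of 7 for NuRD, 2 of 2 for Rbbp4 and Rbbp7, which Sin3 and NuRD share, 8 of 8 for CoREST and 3 of 3 for NCoR. Their best peaks had a median rank of 3003 (99 to 12060) and a median length of 1350 bp, beside 1865.5 and 1300 bp for the 10 genes. The longest were at Cdk2ap1 of NuRD (2900 bp, rank 167) and at Sinhcaf (2700 bp, rank 99) and Ing1 (2600 bp, rank 321) of Sin3. More than 1 promoter peak was found in 12 of the 31 and a distal peak in 2. Among all genes with a promoter peak, 21.4% had more than 1 and 14.2% had a distal peak. Sin3a was thus not alone among subunit genes in having several.

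**Figure D5:**
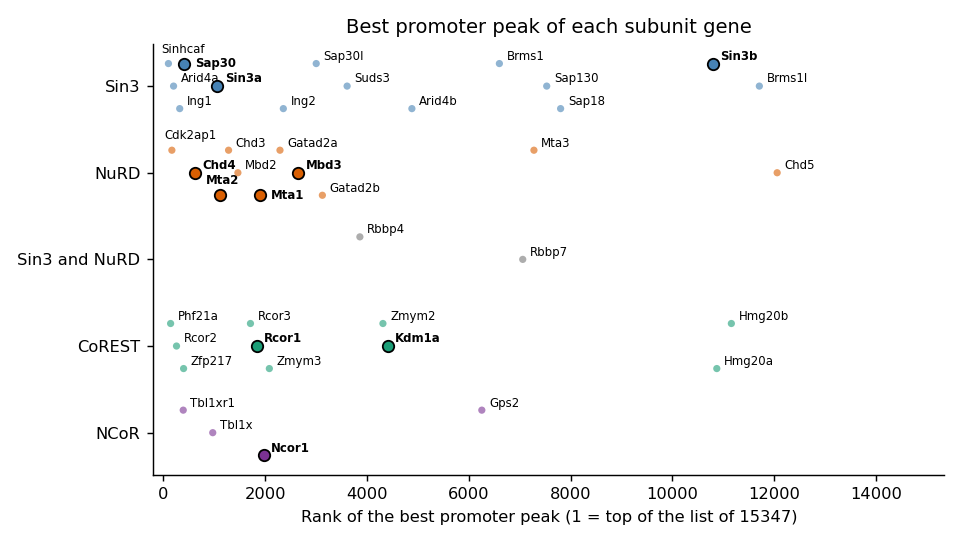
Rank of the best promoter peak (x axis, 1 is the top of the list) for the corepressor genes (large outlined points, bold names) and 31 other subunit genes (small points), by complex (y axis; vertical offsets within a complex are for legibility). The NCoR points lie between 390 and 6257, and Sin3b (10801) lies far to the right of Sap30 (413) and Sin3a (1062).

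Several subunits have paralogs, whose promoter peaks are set side by side here. Of the Sin3 scaffolds, Sin3a had rank 1062, or 6553 under the narrower definitions of a promoter peak, and Sin3b rank 10801. Of the CHD ATPases, Chd4 (rank 618, 1800 bp) and Chd3 (rank 1281, 1550 bp) were near each other, whereas Chd5 had rank 12060 and 600 bp. Mta1 and Mta2 (ranks 1891 and 1118) stood above Mta3 (rank 7281, 1000 bp). Mbd3 (rank 2652, 1200 bp) and Mbd2, whose protein is the alternative to MBD3 in NuRD (rank 1464, 1500 bp), were closer. For the CoREST scaffolds all 3 genes were high in the list, Rcor2 at rank 258 (1600 bp), Rcor3 at 1711 (2200 bp) and Rcor1 at 1840 (2200 bp). Sap30 (rank 413, 1400 bp) stood above Sap30l (rank 3003, 1350 bp) at nearly the same length.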

How the data were processed

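HDAC1 ChIP-seq of pooled mouse limb buds was represented by 1 list of 15347 peaks. The submitters' processing notes name Bowtie2 2.2.5 and mm10, and per the methods CisGenome was the authors' peak caller, with a threshold on the false discovery rate. The deposited columns are chromosome, start and end coordinates. They were read as 1-based intervals, and the order of the list was read as rank. Depth or signal per peak or sample was not analysed here.

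Overlaps used GENCODE M21 basic protein-coding transcripts, positions used RefSeq starts, and sequences came from RefSeq (GRCm38). Members and gene lists were chosen with earlier results of these data known. Named genes were all 10 members, other subunits without a promoter peak or with the 3 longest ones, and neighbours at a counted peak. The paralogs were named after their values were seen, and 1 subunit is not reported here. Overlap calls were tested on simulated data, with 2000 of 2000 regions matched. Alternatives were flanks, promoter windows, transcript sets, annotations, overlap, merging, coordinate base and a shorter list. Python 3.11.15, numpy 2.4.6, pandas 2.3.3, scipy 1.17.1 and matplotlib 3.10.9 were used. No test was made.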

Additional observations from a re-analysis of the deposited data

How the results depend on the processing

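Over 12 alternatives, 158 of 171 values stayed within 1.5 times the reported count or median, or within the 95% Wilson interval of the reported share, and 13 did not. The share of protein-coding genes with any peak (50.5%) was 45.1%, 48.1% and 53.8% with flanks of 0, 2 and 10 kb, and 35.0% with the first 7673 peaks of the list. The share with a promoter peak (43.9%) was 46.0% within 5 kb on both sides of the start, 45.0% with RefSeq genes and 29.9% with the first 7673 peaks. With the gene body alone NuRD had 4 peaks in place of 8, since its other peaks lie in the flanks. With flanks of 10 kb the median rank of the member peaks was 4412 in place of 2312. With the first 7673 peaks Sin3 had 4 peaks in place of 7, and 9 of 10 genes had a promoter peak, since the only Sin3b peak is in the second part of the list. All 10 genes had a promoter peak under the other alternatives that bear on promoters, including the comprehensive GENCODE starts, an alternative chosen after seeing the data. Best ranks and promoter peaks by complex were also recomputed after seeing the data. The best rank of Sin3a (1062) was 6553 with 1 kb on both sides of the start and with at least 50% of a peak inside the window, and the own promoter peaks of Sin3 (6) numbered 3 with the first 7673 peaks. The member promoter peaks numbered 10 to 13. No paired analysis was possible because the list holds no value per sample, and for that reason no replicate could be left out. Depth per peak was not analysed here, a site without a peak may be bound below the threshold, and a rank is given without an error.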

Other observations

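The deacetylase genes themselves had lower placed promoter peaks than most of their partners. Hdac1 had 3 peaks in its body and flanks, of which 1 was at its promoter (rank 5702, 750 bp). Hdac2, the close paralog that joins the same complexes, had 1 peak, at its promoter (rank 4183, 800 bp). Hdac3, the enzyme of NCoR, had 3 peaks, of which 2 were at its promoter (best rank 9176, 650 bp). These values stand beside a median best rank of 1865.5 and a median best length of 1300 bp for the 10 partner genes, and 5174.5 and 650 bp for all genes with a promoter peak. No test was possible with 1 list.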
